A study of Homo sapiens with 45 samples.

Results

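The 9 genes described here, RRM1, RRM2, TYMS, TK1, DUT, DTYMK, DCTPP1, IMPDH2 and PAICS, encode enzymes that supply nucleotides, and they were chosen by gene symbol from the 29159 genes counted. Earlier results of these data were known when these genes and the lists used below were chosen. Their counts beside shares of all genes are therefore descriptive. All 9 were present in the count tables of the 3 neuroblastoma lines, and all 9 passed the filter on low counts in each line, on which 14055 genes (SK-N-BE(2)C), 14293 genes (IMR-32) and 14547 genes (SH-SY5Y) were tested. Each line was grown as control, with palbociclib (PB, an inhibitor of the cyclin-dependent kinases CDK4 and CDK6) for 24 h, or with PB for longer, namely 5 days for IMR-32 and SH-SY5Y but 7 days for SK-N-BE(2)C. These 9 groups had 5 replicates apiece, 45 libraries of polyA RNA in all, and the study's methods give 1 μM PB, DMEM/F12 medium with serum and controls collected with the 24 h samples. Longer PB and control thus also differ in how long the cells were cultured, and 7 against 5 days cannot be told apart from the difference between lines.

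All lines are established cultures of adrenergic neuroblastoma, a tumour of the sympathetic lineage. The study describes SK-N-BE(2)C and IMR-32 as MYCN amplified with loss of 1p, and SH-SY5Y as ALK mutant with a gain of 17q. Each line stands for 1 tumour, so differences between lines are differences between those cultures. The 8 adrenergic marker genes summed to between 1963 and 8633 CPM (counts scaled to a common library total) in every library, while DBH was as low as 0.932 CPM in IMR-32 libraries and TH stayed at or below 0.873 CPM in SH-SY5Y. Blood and epithelial markers summed to at most 6.64 and 3.03 CPM. The 8 mesenchymal or fibroblast markers that were found summed to between 199 and 256 CPM in SK-N-BE(2)C controls and between 356 and 654 CPM at 7 days, and to between 105 and 237 CPM in IMR-32 controls and 32.3 and 46.8 CPM at 5 days. Of these markers 6 were tested in SK-N-BE(2)C, where 3 were called lower and 3 higher at 7 days by the rule given below. In IMR-32 4 were tested, with 3 lower and 1 higher at 5 days. Of all genes tested, 22.3% and 15.5% were called lower and 24.5% and 16.6% higher, so neither sum stands for all its markers. The part of these markers in the results below was not tested. Libraries held 13459219 to 25441812 counts, and the fewest counts behind any value of a described enzyme were 73, for RRM2.

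Deoxynucleotides are made mainly by ribonucleotide reductase, which reduces ribonucleoside diphosphates and is built from the large subunit RRM1 and the small subunit RRM2. TYMS methylates dUMP to dTMP, DUT supplies that dUMP while destroying dUTP, DTYMK phosphorylates dTMP, and TK1 recovers thymidine by salvage. DCTPP1 hydrolyses dCTP and damaged or modified relatives of it. PAICS carries out consecutive steps of purine synthesis from small precursors, and IMPDH2 commits inosine monophosphate to guanine nucleotides. Many genes of deoxynucleotide supply are known to be transcribed at the start of S phase under E2F factors, which the RB protein holds back until it is phosphorylated by CDK4 and CDK6.

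Because several of these genes moved together, their promoters are shown first. RefSeq promoter windows (GRCh38.p14, 250 bases before to 50 bases after a start) were on hand for 8 of the 9 genes, the one not matched being IMPDH2. The 250 bases before a listed start are printed for the genes with the deepest falls (RRM2, TYMS, TK1), for DUT, which fell less and holds the E2F words TTTCCCGC and TTTGGCGC, and for DCTPP1, which fell little at 24 h. The stretch printed for DCTPP1 holds a start codon followed by a run of codons without a stop, so its listed start may lie inside the gene. Its words may then not describe the promoter of the counted transcript. Capitals mark every searched word on either strand: the E2F words TTTCCCGC, TTTGGCGC, TTTGCCGC and TTTCGCGC, the same words without their first T (E2F core, contained in the former), TTTGAA (CHR), CACGTG (E-box) and CCAAT.
RRM2 (chr2:10122489-10122738, plus strand): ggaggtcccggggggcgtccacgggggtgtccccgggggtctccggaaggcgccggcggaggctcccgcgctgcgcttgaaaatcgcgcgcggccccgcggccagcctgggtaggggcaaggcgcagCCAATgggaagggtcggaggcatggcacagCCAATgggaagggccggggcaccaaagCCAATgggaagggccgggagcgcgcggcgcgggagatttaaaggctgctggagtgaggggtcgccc
TYMS (chr18:657403-657652, plus strand): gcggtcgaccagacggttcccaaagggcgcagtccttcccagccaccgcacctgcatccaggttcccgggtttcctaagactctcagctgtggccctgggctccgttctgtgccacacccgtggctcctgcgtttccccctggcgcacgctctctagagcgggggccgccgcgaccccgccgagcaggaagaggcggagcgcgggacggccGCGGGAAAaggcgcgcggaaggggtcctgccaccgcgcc
TK1 (chr17:78187053-78187302, minus strand): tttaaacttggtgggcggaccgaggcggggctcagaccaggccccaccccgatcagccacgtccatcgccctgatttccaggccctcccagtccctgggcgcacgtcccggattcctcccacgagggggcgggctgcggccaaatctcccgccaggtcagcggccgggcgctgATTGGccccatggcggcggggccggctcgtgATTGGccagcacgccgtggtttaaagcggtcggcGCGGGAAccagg
DUT (chr15:48331947-48332196, plus strand): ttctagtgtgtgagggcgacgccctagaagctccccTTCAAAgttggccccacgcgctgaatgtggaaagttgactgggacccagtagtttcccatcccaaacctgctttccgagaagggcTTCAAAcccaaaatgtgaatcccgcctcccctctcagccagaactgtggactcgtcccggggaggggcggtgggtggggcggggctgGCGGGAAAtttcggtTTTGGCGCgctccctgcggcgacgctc
DCTPP1 (chr16:30429801-30430050, minus strand): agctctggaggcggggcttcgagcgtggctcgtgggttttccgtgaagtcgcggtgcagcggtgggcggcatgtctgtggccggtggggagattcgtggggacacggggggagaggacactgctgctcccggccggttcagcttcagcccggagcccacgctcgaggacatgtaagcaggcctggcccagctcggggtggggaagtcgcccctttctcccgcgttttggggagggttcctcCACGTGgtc

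An E2F word of 8 letters was found in 2 of the 8 genes, DUT and TYMS, where 3.31% of the 35116 promoter windows in the table hold one. The shorter E2F core was found in 6 of 8 (RRM1, RRM2, TYMS, TK1, DUT, PAICS), against 12.97% of all windows, although for RRM2 it lay only in the window of a second start further upstream. The window of RRM2 printed above held CCAAT 3 times, beginning 123, 93 and 66 bases before the start. CCAAT occurred in 4 of 8 genes (RRM1, RRM2, DTYMK, TK1) against 34.61% of windows, and CHR in 2 of 8 (RRM1, DUT) against 15.16%. The E-box word was found in 2 of 8, DCTPP1 and PAICS, against 7.26% of windows. Several genes have more than 1 window in the table (DUT 4, PAICS 3, RRM2 and TK1 2 each), so these are shares of genes beside shares of windows, and a match describes letters only. For DCTPP1 the only listed start may lie inside the gene, so the words found or missing there may not describe its promoter.

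On GRCh37 the genes lie at chr11:4115937-4160162 (RRM1), chr2:10260825-10351851 (RRM2), chr18:657653-673578 (TYMS), chr15:48623208-48635570 (DUT), chr2:242615162-242626359 (DTYMK), chr17:76170172-76183314 (TK1), chr16:30434936-30441351 (DCTPP1), chr4:57301907-57330744 (PAICS) and chr3:49061758-49066880 (IMPDH2), positions that belong to another build than those of the promoters above.

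PB was followed at 24 h by lower RNA of the deoxynucleotide and thymidine enzymes in all 3 lines, in a graded order. RRM2, TK1 and TYMS fell most, by 9.41-fold to 37.7-fold, RRM1 by 2.93-fold to 3.86-fold, DUT and DTYMK by 2.02-fold to 2.89-fold, and DCTPP1 by 1.49-fold to 1.74-fold. PAICS passed the call in IMR-32 and SH-SY5Y, and IMPDH2 was called in no line at 24 h. Calls required an absolute log2 fold change over 0.5 together with an adjusted p below 0.05 (edgeR quasi-likelihood test, Benjamini-Hochberg over all genes tested). By that rule 7 of 9 enzymes were lower in SK-N-BE(2)C, 8 of 9 in IMR-32 and 8 of 9 in SH-SY5Y, and none was higher. Of all genes tested, 10.6%, 10.5% and 11.0% were called lower, and 10.9%, 7.87% and 10.5% higher. The median log2 fold change of the 9 was -1.53, -1.13 and -1.37 in the same order of lines, beside 0.023, 0.060 and 0.037 over all genes tested.

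After longer PB the enzymes were lower than control in 8 of 9 (SK-N-BE(2)C), 9 of 9 (IMR-32) and 8 of 9 (SH-SY5Y), with none higher. All genes tested were called lower in 22.3%, 15.5% and 17.3% and higher in 24.5%, 16.6% and 18.6%. The enzyme not called at the longer time was IMPDH2, in SK-N-BE(2)C and SH-SY5Y. The 5 treated libraries lay wholly below the 5 controls for 8, 7 and 8 enzymes at 24 h, in the same order of lines, where 18.1%, 13.8% and 18.1% of all genes did, and for 8 enzymes in each line at the longer time, where 27.0%, 19.4% and 20.0% of all genes did. Both times share the same controls, so the 2 counts are not independent. In bulk RNA, fewer cells passing through S phase and less RNA per cell cannot be told apart.

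**Figure D1:**
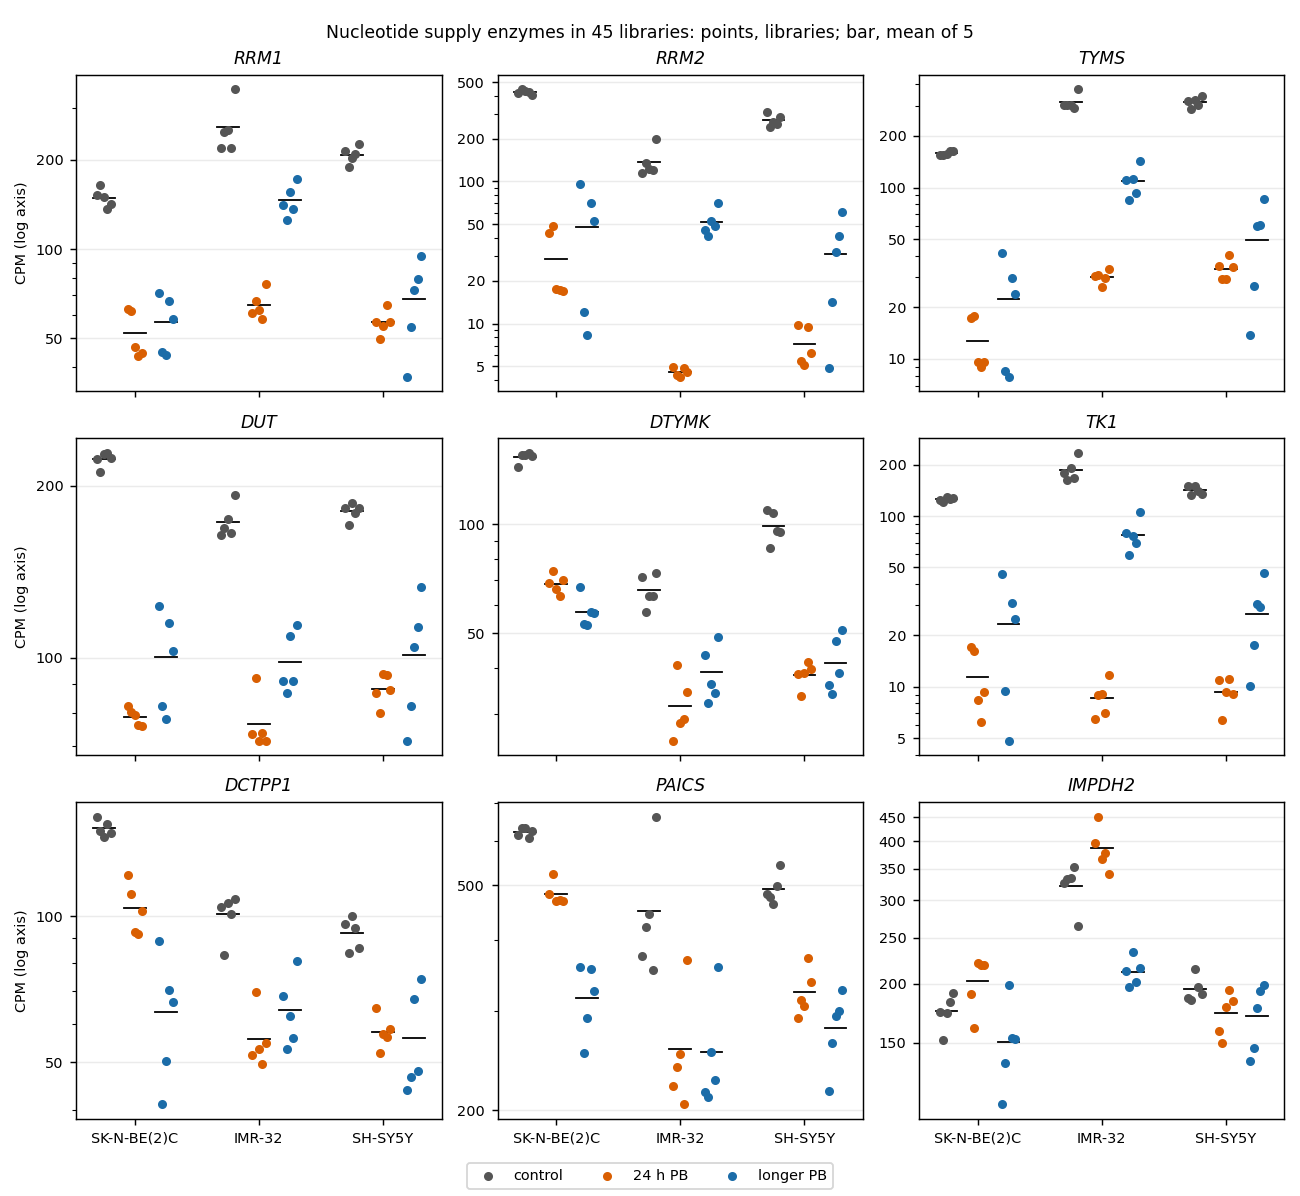
CPM (log axis, own range in each panel) of the 9 enzymes in the 45 libraries, with grey points for control, orange for 24 h PB and blue for longer PB, ordered by replicate number within a group, and a bar at the mean of 5. RRM2 sat at 4.21 to 4.94 CPM at 24 h in IMR-32 against 114 to 199 in its controls, whereas IMPDH2 at 24 h overlapped with control in all 3 lines.

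RRM2, the small subunit of ribonucleotide reductase, showed the largest fall of the 9 at 24 h in each line. In SK-N-BE(2)C its controls (replicates 1 to 5) held 419, 447, 430.4, 423 and 407 CPM, the 24 h libraries 43.3, 48.5, 17.4, 17.1 and 16.8 CPM and the 7 day libraries 96.4, 11.98, 8.36, 69.9 and 52.5 CPM. All treated libraries were below all controls, but replicates 1 and 2 were above replicates 3 to 5 at 24 h, and replicates 2 and 3 were far below the others at 7 days. The log2 fold change (± SE) was -3.91 ± 0.59, adjusted p = 7.6e-05 at 24 h and -3.20 ± 0.57, adjusted p = 1.4e-04 at 7 days, and 7 days did not pass the test against 24 h (0.71 ± 0.55, adjusted p = 0.27). Only 0.0498% of tested genes had a more negative change at 24 h in this line.

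In IMR-32 the RRM2 controls held 114, 136, 122, 119.6 and 199 CPM, the 24 h libraries 4.94, 4.36, 4.21, 4.83 and 4.57 CPM and the 5 day libraries 45.7, 41.5, 52.4, 48.8 and 70.2 CPM. The 3 groups did not overlap, and the 24 h libraries were almost at one level. RRM2 fell by 4.87 on the log2 scale at 24 h (SE 0.19, adjusted p = 8.3e-11) and was -1.43 ± 0.16, adjusted p = 5.7e-06 at 5 days. Between 24 h and 5 days it rose 10.9-fold (3.44 ± 0.18, adjusted p = 9.6e-09), which brought its mean from 3.32% to 37.5% of the control mean.

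In SH-SY5Y the RRM2 controls held 310.1, 243, 264, 252 and 283 CPM, the 24 h libraries 9.79, 5.42, 5.10, 9.38 and 6.18 CPM and the 5 day libraries 4.87, 14.2, 31.9, 41.3 and 60.8 CPM. The 5 day group was widely spread, and its replicate 1 lay below all the 24 h libraries and the others above them. The changes were -5.24 ± 0.52, adjusted p = 1.7e-06 at 24 h and -3.21 ± 0.45, adjusted p = 2.5e-05 at 5 days, and 5 days was higher than 24 h (2.03 ± 0.50, adjusted p = 0.0051).

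RRM1, the large catalytic subunit, fell less than its partner. SK-N-BE(2)C controls held 137 to 165 CPM, which became 43.7 to 62.7 at 24 h and 43.9 to 70.8 at 7 days, the treated groups overlapping with each other and not with control. IMR-32 libraries held 219 to 347 CPM in control, 57.9 to 76.4 at 24 h and 126 to 172 at 5 days, 3 groups without overlap. In SH-SY5Y the ranges were 189.7 to 226, 49.5 to 64.7 and 37.01 to 94.8. For SK-N-BE(2)C the 24 h change was -1.55 ± 0.15, adjusted p = 5.8e-07, for IMR-32 -1.95 ± 0.14, adjusted p = 1.9e-08 and for SH-SY5Y -1.89 ± 0.19, adjusted p = 1.3e-06. Later they were -1.44, -0.83 and -1.69, and RRM1 was higher at 5 days than at 24 h in IMR-32 (1.12 ± 0.13, adjusted p = 1.9e-05). RRM1 shares 63 exonic bases with RRM1-AS1 on the opposite strand, a small part of its 4233 exonic bases.

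The balance between the 2 subunits therefore shifted inside the libraries. The log2 ratio of RRM2 to RRM1 CPM was 1.51 ± 0.075 (SD, n = 5) in SK-N-BE(2)C controls and -1.01 ± 0.52 at 24 h. IMR-32 controls were at -0.91 ± 0.092 and 24 h libraries at -3.79 ± 0.20, and SH-SY5Y fell from 0.37 ± 0.10 to -3.01 ± 0.35. The ranges at 24 h lay below those of control in each line without overlap. At the longer time the ratio had moved back towards control in IMR-32, to -1.51 ± 0.13 with a range of -1.62 to -1.29 that still lay below control (-1.05 to -0.81). In the other lines it scattered widely, over -2.38 to 0.45 in SK-N-BE(2)C and -2.90 to -0.64 in SH-SY5Y. This ratio is a difference of logs within a library, not a ratio of subunits in the enzyme, because it takes no account of transcript length or of protein.

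**Figure D2:**
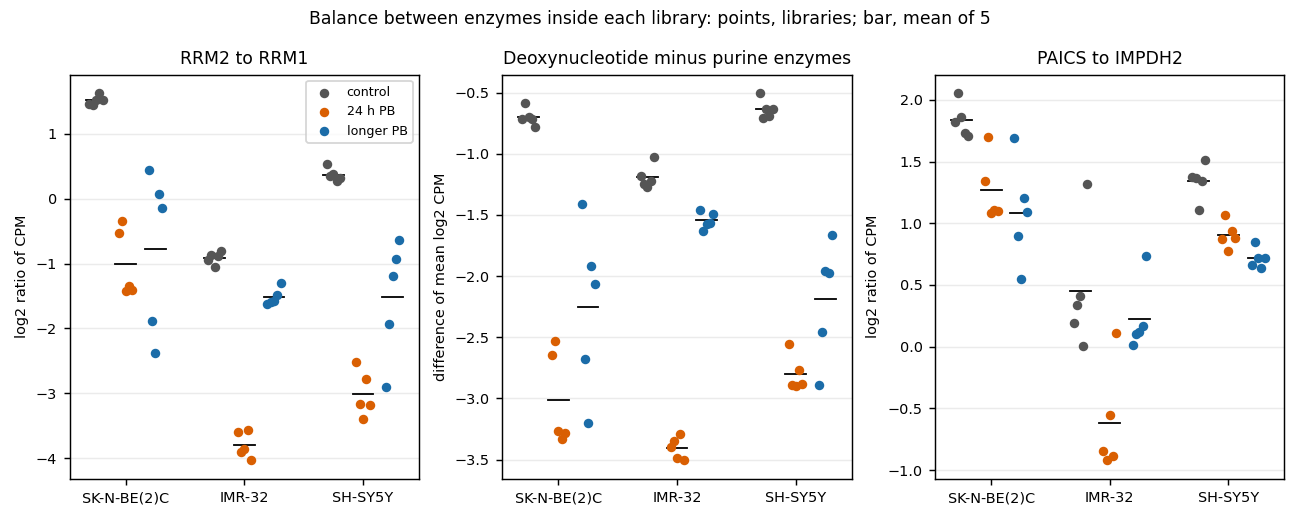
Log2 ratio of RRM2 to RRM1 (left), mean log2 CPM of RRM1, RRM2, TYMS, DUT and DTYMK minus that of PAICS and IMPDH2 (centre) and log2 ratio of PAICS to IMPDH2 (right), 1 point per library, colours as for CPM by library, bars at the mean of 5. At 24 h the first 2 quantities lay below control in every line without overlap, and the widest scatter of the first was in the longer PB groups of SK-N-BE(2)C and SH-SY5Y.

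TYMS, which makes dTMP, lost most of its RNA at 24 h. Its controls held 155, 156, 158, 163 and 164 CPM in SK-N-BE(2)C, and its 24 h libraries 17.3, 17.8, 9.65, 8.98 and 9.60 CPM (-3.67 ± 0.41, adjusted p = 4.2e-06). IMR-32 libraries held 291 to 376 CPM in control and 26.3 to 33.6 CPM at 24 h (-3.34 ± 0.14, adjusted p = 1.1e-10), and SH-SY5Y libraries 287 to 340.4 CPM and 29.2 to 40.4 CPM (-3.23 ± 0.37, adjusted p = 6.3e-06). Neither line showed any overlap with control. The 5 libraries of the longer time held 41.5, 8.48, 7.86, 29.6 and 23.9 CPM in SK-N-BE(2)C, where replicates 2 and 3 were again low, 111, 84.7, 112, 93.5 and 142 CPM in IMR-32 and 13.8, 26.6, 59.97, 60.8 and 85.9 CPM in SH-SY5Y, where replicates 1 and 2 were low. The changes against control were -2.89, -1.55 and -2.74. TYMS was higher at the longer time than at 24 h in IMR-32 (1.79 ± 0.13, adjusted p = 1.6e-07). In SH-SY5Y that comparison gave 0.50 ± 0.35, adjusted p = 0.27, and leaving out replicate 1 of the 5 day group made it 0.76 with an adjusted p of 0.025. TYMS shares 1160 of its 2421 exonic bases with ENOSF1 and TYMSOS on the opposite strand. The study's methods name a directional library kit, but which strand was counted is not known here. Counts of TYMS could therefore include reads of those genes or miss some of its own.

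DUT, whose product is the dUMP used by TYMS, and DTYMK, which phosphorylates dTMP, fell by about 1 to 1.5 log2 units. SK-N-BE(2)C libraries held 211 to 229 CPM of DUT in control and 75.8 to 82.4 CPM at 24 h (-1.53 ± 0.10, adjusted p = 1.3e-08), with changes of -1.13 in IMR-32 and -1.04 in SH-SY5Y. With longer PB DUT was at -1.19, -0.83 and -0.90, and its difference from 24 h stayed under the fold limit in each line (0.34, 0.30 and 0.14). SK-N-BE(2)C libraries held 144 to 158 CPM of DTYMK in control, 63.3 to 74.2 at 24 h and 52.8 to 67.2 at 7 days. Its changes at 24 h were -1.19, -1.01 and -1.37, and later -1.46, -0.77 and -1.32. In SK-N-BE(2)C it was a little lower at 7 days than at 24 h (-0.27 ± 0.07, adjusted p = 0.0037), short of the fold limit, while RRM2, TYMS and TK1 had positive estimates there. DUT shares 533 of 3674 exonic bases with DUT-AS1 on the opposite strand, whereas DTYMK shares none.

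TK1, the cytosolic thymidine kinase of the salvage route, fell at 24 h in every line. Its controls held 178, 162, 192, 167 and 235 CPM in IMR-32, its 24 h libraries 6.45, 8.91, 9.07, 7.06 and 11.8 CPM and its 5 day libraries 79.99, 59.02, 76.2, 69.1 and 105 CPM, without overlap. The changes were -4.39 ± 0.20, adjusted p = 2.6e-10 at 24 h and -1.27 ± 0.17, adjusted p = 2.6e-05 at 5 days, with a rise of 3.12 ± 0.19, adjusted p = 3.0e-08 between them. SK-N-BE(2)C libraries held 120.2 to 129 CPM of TK1 in control and 6.19 to 17.03 CPM at 24 h (-3.47 ± 0.48, adjusted p = 3.4e-05), and at 7 days its libraries held 45.97, 9.39, 4.83, 31.1 and 24.9 CPM. Those of SH-SY5Y held 132 to 150.4 CPM in control, 6.35 to 11.2 CPM at 24 h (-3.92 ± 0.32, adjusted p = 2.6e-07) and 10.1, 17.6, 30.5, 29.4 and 46.1 CPM at 5 days, higher than at 24 h (1.45 ± 0.32, adjusted p = 0.0024). Its mitochondrial counterpart TK2 was called in neither direction, with changes at 24 h of 0.36, 0.21 and 0.21. Of the 7 other deoxynucleoside salvage genes 1, 2 and 2 were called lower at 24 h in the 3 lines, where 10.6%, 10.5% and 11.0% of all genes were.

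DCTPP1, which removes surplus or altered dCTP, fell modestly at 24 h and further with time in SK-N-BE(2)C. Its libraries there held 160.2, 149.9, 145, 155 and 148 CPM in control, 122, 111, 92.9, 91.8 and 102 CPM at 24 h and 88.9, 40.98, 50.4, 70.6 and 66.6 CPM at 7 days, each group below the one before without overlap. The changes were -0.58 ± 0.16, adjusted p = 0.0079 at 24 h and -1.30 ± 0.16, adjusted p = 3.3e-06 at 7 days, and 7 days was lower than 24 h (-0.72 ± 0.16, adjusted p = 0.0013). In IMR-32 the changes were -0.80 and -0.66 and in SH-SY5Y -0.68 and -0.78, with the 2 treated groups overlapping in both lines. DCTPP1 shares 645 of 1564 exonic bases with ZNF771 on the opposite strand.

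PAICS, of purine synthesis, fell less than the deoxynucleotide enzymes at 24 h. In SK-N-BE(2)C it went from 615, 632, 631, 608 and 625 CPM to 483, 524, 469.7, 471 and 470.2 CPM at 24 h and 358, 252, 291, 355 and 325 CPM at 7 days. The 24 h change, -0.40 ± 0.081, adjusted p = 8.1e-04, passed the test but not the fold limit, although no treated library reached a control, and 7 days was called against both control (-1.02 ± 0.082, adjusted p = 1.5e-08) and 24 h (-0.62 ± 0.082, adjusted p = 8.2e-06). In SH-SY5Y it was -0.61 ± 0.099, adjusted p = 5.3e-05 at 24 h and -0.88 ± 0.10, adjusted p = 4.6e-07 at 5 days.

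In IMR-32 the PAICS controls held 374, 421, 445, 353 and 662 CPM, the 24 h libraries 221, 239, 251, 205 and 368 CPM and the 5 day libraries 215, 211, 254, 226 and 359 CPM. Replicate 5 was the highest in all 3 groups, and without it neither treated group overlapped with control. The changes were -0.77 ± 0.20, adjusted p = 0.0087 and -0.85 ± 0.20, adjusted p = 0.0029, and -0.74 and -0.82 without replicate 5, both still called. These 3 libraries stood apart across all genes too, with a median correlation to the rest of their group of 0.958, 0.956 and 0.972 where the other IMR-32 libraries had 0.983 (24 h replicate 2) to 0.992. Counts of enzymes called against control in IMR-32 were 8 and 9 without them, as with them.

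IMPDH2, the guanine branch point, was the exception among the 9. Its controls held 327, 333, 335, 353 and 265 CPM in IMR-32, its 24 h libraries 397, 452, 368, 378 and 342 CPM and its 5 day libraries 213, 197, 233, 201 and 216 CPM. The 24 h group overlapped with control and had a positive change under the fold limit (0.31 ± 0.094, adjusted p = 0.019), while the 5 day group lay below both others. IMPDH2 was called lower at 5 days against control (-0.61 ± 0.095, adjusted p = 8.9e-05) and against 24 h (-0.93 ± 0.095, adjusted p = 4.2e-06). Changes of IMPDH2 in SK-N-BE(2)C were 0.18 ± 0.12, adjusted p = 0.25 at 24 h and -0.26 ± 0.12, adjusted p = 0.069 at 7 days, over 152 to 191, 161 to 221 and 111 to 199 CPM. In SH-SY5Y it gave -0.18 ± 0.10, adjusted p = 0.17 at 24 h and -0.26 ± 0.10, adjusted p = 0.038 at 5 days, the latter under the fold limit, over 184 to 215, 149.8 to 194 and 137 to 199 CPM. The annotation places a second gene on the same strand over 1680 of its 5123 exonic bases, so its counts may be affected.

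**Figure D3:**
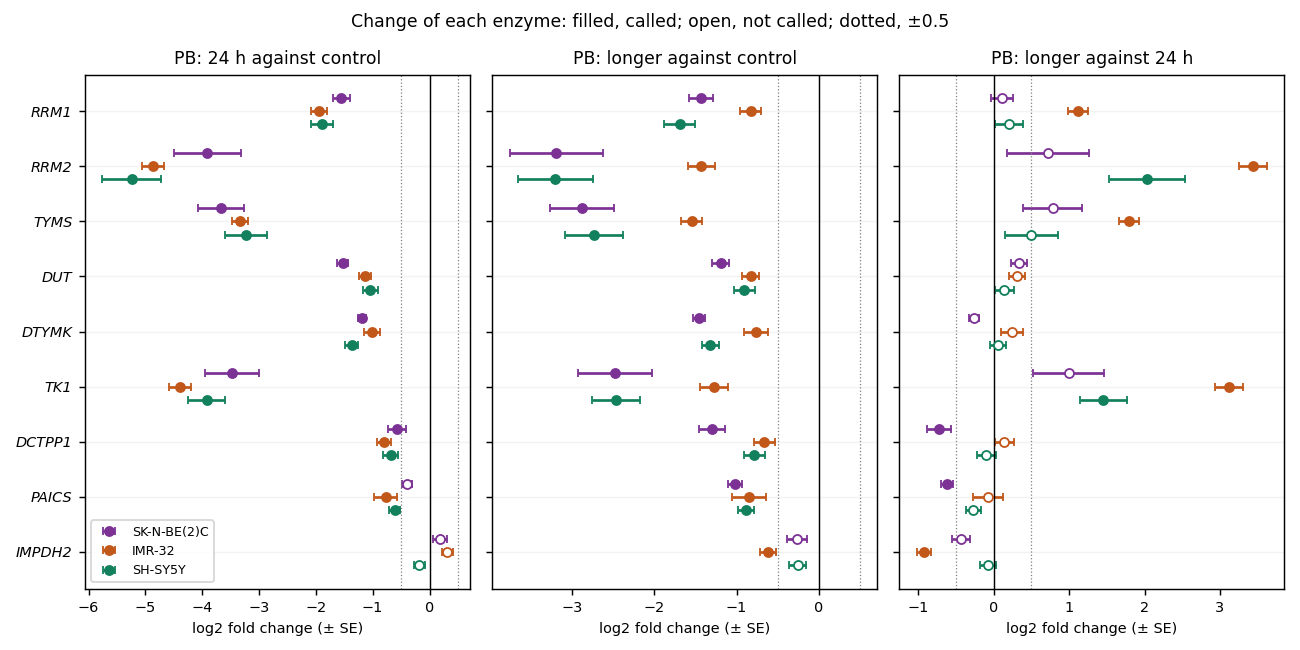
Log2 fold change (± SE) of the 9 enzymes for 24 h against control, longer PB against control and longer PB against 24 h, colours for the 3 lines, filled points called and open points not called, dotted lines at ±0.5 (horizontal scales differ between panels). RRM2 reached -5.24 at 24 h in SH-SY5Y, IMPDH2 lay between -0.18 and 0.31, and in the last panel IMR-32 is to the right for RRM1, RRM2, TYMS and TK1.

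Longer PB was also compared with 24 h within each line. Of the 9 enzymes SK-N-BE(2)C had 2 called lower (DCTPP1 and PAICS) and none higher, where 14.4% of all genes were lower and 17.5% higher. IMR-32 had 4 called higher (RRM1, RRM2, TYMS and TK1) and 1 lower (IMPDH2), against 10.8% and 8.86% of all genes. SH-SY5Y had 2 called higher (RRM2 and TK1) and none lower, against 10.5% and 6.23%. The count in SK-N-BE(2)C moved with single libraries: TYMS and TK1 were also called higher without 7 day replicate 2 (log2 fold changes of 0.99 and 1.197), TYMS, TK1 and IMPDH2 (-0.56) without 7 day replicate 3, and IMPDH2 (-0.51) without 24 h replicate 2.

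Whether the responses differed between lines was tested directly, over all 45 libraries and 16282 genes. At 24 h the difference was called for 0 of the 9 enzymes in each pair of lines, where 4.49% (SK-N-BE(2)C and IMR-32), 2.04% (SK-N-BE(2)C and SH-SY5Y) and 3.07% (IMR-32 and SH-SY5Y) of genes were called (edgeR). At an unadjusted p under 0.05 the pairs of lines differed in 1, 3 and 1 enzymes, beside 20.2%, 15.8% and 16.8% of all genes. The intervals leave room for sizeable differences: the RRM2 change in SK-N-BE(2)C minus that in SH-SY5Y was 1.30, 95% interval 0.053 to 2.54 (adjusted p = 0.31), and the DUT change differed by -0.52, 95% interval -0.84 to -0.19 (adjusted p = 0.075), which passed with the replicate number as a block (-0.51, adjusted p = 0.034).

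At the longer time 6 enzymes fell further in SK-N-BE(2)C than in IMR-32 (23.9% of genes differed), a count that was 2, DTYMK and TYMS, with no filter on low counts. RRM2 differed by -1.74 ± 0.61, adjusted p = 0.024, TYMS by -1.31 ± 0.44, adjusted p = 0.02 and DTYMK by -0.66 ± 0.16, adjusted p = 0.0016. TK1 (-1.18 ± 0.47), DCTPP1 (-0.61 ± 0.21) and RRM1 (-0.58 ± 0.23) had adjusted p values of 0.048, 0.022 and 0.045, and with RLE factors TK1 (0.055) and RRM1 (0.059) missed the threshold. Between IMR-32 and SH-SY5Y (20.8% of genes) RRM1, RRM2 and TYMS differed, each being less reduced in IMR-32, by 0.81 ± 0.23, 1.73 ± 0.61 and 1.13 ± 0.44 with adjusted p values of 0.006, 0.029 and 0.046, of which RRM2 (0.059) and TYMS (0.087) missed it with no filter. TK1 gave 1.14 ± 0.47, adjusted p = 0.061, and passed with the replicate block (1.22, adjusted p = 0.032). DTYMK (0.498 ± 0.165, adjusted p = 0.019) and IMPDH2 (-0.417 ± 0.159, adjusted p = 0.042) passed the test in that pair but not the fold limit. Between SK-N-BE(2)C and SH-SY5Y (21.2% of genes) DCTPP1 alone differed (-0.54 ± 0.21, adjusted p = 0.045), a call lost with RLE factors (adjusted p = 0.064) and with no filter (0.13). For RRM2 that pair gave -0.013, 95% interval -1.21 to 1.19, an interval that still holds differences of over 2-fold either way. Without IMR-32 replicate 5 the TK1 difference between SK-N-BE(2)C and IMR-32 no longer passed, nor did the TYMS difference between IMR-32 and SH-SY5Y (adjusted p = 0.063 and 0.067).

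The step from 24 h to the longer time, tested in the same way after the values had been seen, differed between SK-N-BE(2)C and IMR-32 for 6 enzymes (21.3% of genes), between SK-N-BE(2)C and SH-SY5Y for 1 (15.9%) and between IMR-32 and SH-SY5Y for 4 (14.7%). Without IMR-32 replicate 5 the last count was 3, since TYMS no longer passed (1.19, adjusted p = 0.065), as it did not with no filter (0.066). Of the 6, IMPDH2 (0.51) was under the fold limit with the replicate block (0.50), with library size alone (0.44) and with no filter (0.45), where PAICS was lost too (adjusted p = 0.051). RRM2 and TK1 moved up less in SK-N-BE(2)C than in IMR-32, by -2.70 ± 0.66 and -2.10 ± 0.50 with adjusted p values of 0.0018 and 0.0014. IMPDH2 went the other way, falling more in IMR-32 than in SH-SY5Y (-0.87 ± 0.16, adjusted p = 9.2e-05). DCTPP1 moved further down in SK-N-BE(2)C than in both IMR-32 (-0.84 ± 0.21, adjusted p = 0.0021) and SH-SY5Y (-0.62 ± 0.21, adjusted p = 0.028), the second of which had an adjusted p = 0.05 and was not called with no filter.

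The deoxynucleotide enzymes changed against the purine enzymes within single libraries. The mean log2 CPM of RRM1, RRM2, TYMS, DUT and DTYMK minus that of PAICS and IMPDH2 was -0.70 ± 0.072 (SD, n = 5) in SK-N-BE(2)C controls, -3.01 ± 0.39 at 24 h and -2.25 ± 0.70 at 7 days. In IMR-32 it was -1.19 ± 0.097, -3.41 ± 0.091 and -1.54 ± 0.068, and in SH-SY5Y -0.63 ± 0.081, -2.80 ± 0.15 and -2.19 ± 0.49. The treated groups lay below control without overlap at both times in all 3 lines. TK1 against the same purine pair went from -1.39 ± 0.033 to -4.87 ± 0.68, from -1.02 ± 0.14 to -5.18 ± 0.23 and from -1.13 ± 0.099 to -4.67 ± 0.28 at 24 h. Mean log2 ratios of PAICS to IMPDH2 were also lower at 24 h, at 1.27 ± 0.26 against 1.84 ± 0.14 in control for SK-N-BE(2)C, -0.62 ± 0.43 against 0.45 ± 0.51 for IMR-32, and 0.91 ± 0.11 against 1.34 ± 0.15 for SH-SY5Y. Without replicate 5 the IMR-32 means were -0.80 and 0.24. These scores received no test.

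Levels of different enzymes were set side by side per kilobase of exon. By the union of annotated exons TYMS was the highest of the 9 in SH-SY5Y controls (130.2 ± 8.58 CPM per kilobase, SD, n = 5) and in IMR-32 controls (130.2 ± 14.3), followed in both by TK1, and DCTPP1 was the highest in SK-N-BE(2)C controls (96.98 ± 3.73). RRM2 was the lowest at 24 h in every line by that measure, at 3.13 ± 1.73, 0.501 ± 0.033 and 0.784 ± 0.245. With the length of the canonical transcript the order changed, since the annotation gives RRM2 9153 exonic bases against 3258 and IMPDH2 5123 against 1651. TYMS in SH-SY5Y controls stayed the highest, in IMR-32 controls it was level with IMPDH2 (195.4 ± 21.4 and 195.4 ± 20.4 CPM per kilobase, SD, n = 5), but DTYMK became the highest in SK-N-BE(2)C controls, and at 24 h RRM2 stayed the lowest in IMR-32 and SH-SY5Y and not in SK-N-BE(2)C.

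Cell cycle genes were measured in the same libraries. All 15 proliferation and S-phase genes listed, among them MKI67, PCNA and the MCM helicase subunits, were called lower at 24 h in the 3 lines, and with longer PB 15, 13 and 15 were. Of all genes 10.6%, 10.5% and 11.0% were lower at 24 h and 22.3%, 15.5% and 17.3% with longer PB. The summed CPM of the 15 was 5150 to 5342 in SK-N-BE(2)C controls, 1187 to 1600 at 24 h and 1148 to 2010 at 7 days. For IMR-32 it was 3973 to 5775, 753 to 1094 and 1788 to 2719, and for SH-SY5Y 4148 to 4873, 765 to 1003 and 824 to 1902. The 7 day replicates 2 and 3 of SK-N-BE(2)C, low for RRM2, TYMS and TK1, held 26.6 and 12.3 CPM of MKI67, a marker of cycling cells, against 83.1 to 147 in the others. The 5 day replicate 1 of SH-SY5Y held 11.3 CPM against 46.9 to 116. In IMR-32 all 15 genes of the list were called higher at 5 days than at 24 h, in SH-SY5Y 8 were, and in SK-N-BE(2)C 2 were higher and 1 lower. Of all genes 10.8%, 10.5% and 17.5% were higher in that comparison, in the same order of lines.

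With group means removed, the log2 CPM of RRM2 correlated with the mean log2 CPM of the 15 cell cycle genes at r = 0.99 (SK-N-BE(2)C), 0.77 (IMR-32) and 0.98 (SH-SY5Y), over 15 libraries each. For RRM1 the values were 0.95, 0.91 and 0.99, and for PAICS 0.86, 0.95 and 0.90. TYMS gave 0.99, 0.85 and 0.99 and TK1 0.97, 0.86 and 0.96. The values of DUT (0.91, 0.45 and 0.94), DTYMK (0.80, 0.53 and 0.70) and DCTPP1 (0.91, 0.43 and 0.70) were lowest in IMR-32. IMPDH2 gave -0.70, -0.47 and 0.83, so its sign was not the same in the 3 lines. Replicate 5 carried much of the spread in IMR-32, where the SD of the cell cycle mean without it went from 0.23 to 0.062 in control and from 0.25 to 0.013 at 24 h. Over the other 12 IMR-32 libraries r was 0.72 for RRM2, 0.78 for RRM1 and for TYMS, 0.60 for PAICS, 0.52 for DUT, 0.46 for TK1, 0.23 for DCTPP1 and 0.15 for DTYMK, and 0.40 for IMPDH2, with the opposite sign. In SK-N-BE(2)C the SD of the cell cycle mean was 0.018 in control, 0.34 at 24 h and 0.60 at 7 days. In SH-SY5Y it was 0.090, 0.23 and 0.75 at 5 days, so the values of these 2 lines rest mainly on spread among treated libraries. The genes of a library share its depth and scaling. The part of cell numbers in S phase in the enzymes' changes was not tested.

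**Figure D4:**
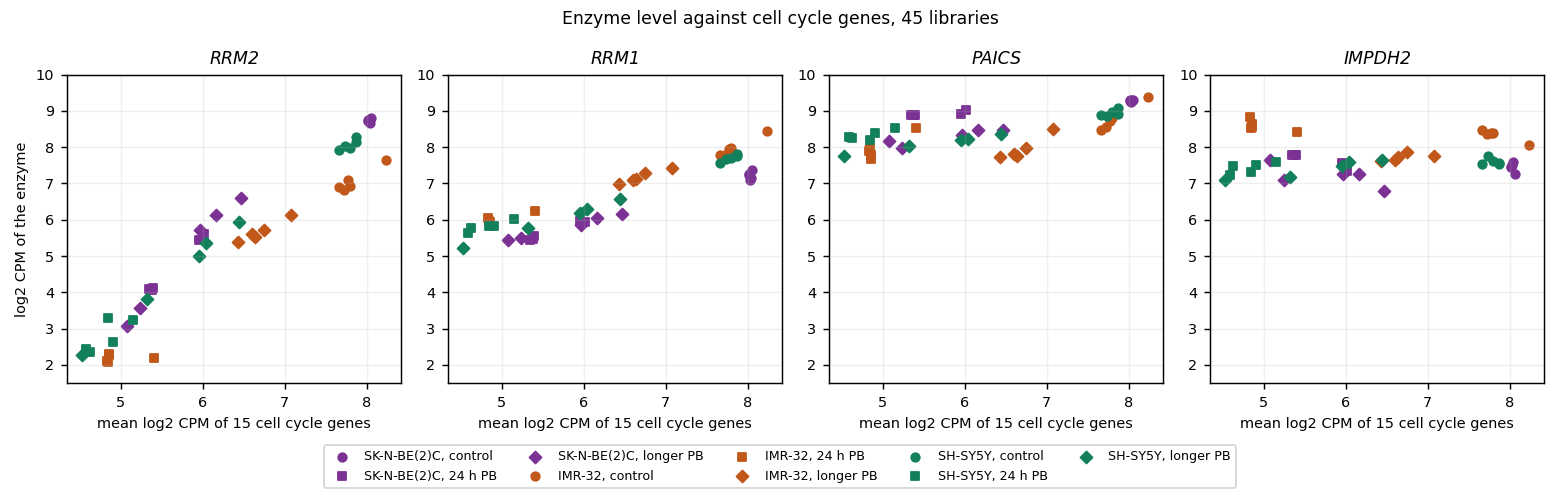
Log2 CPM of RRM2, RRM1, PAICS and IMPDH2 against the mean log2 CPM of 15 cell cycle genes, 1 point per library, colours for lines, circles for control, squares for 24 h and diamonds for longer PB. RRM2 has the steepest course and RRM1 a flatter one, PAICS is shallow, and IMPDH2 shows no common course; diamonds of IMR-32 lie to the right of its squares.

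By the pattern over the 15 libraries of a line, the 3 genes most like each enzyme were named from 11621 genes, by the mean over lines of Pearson's r of log2 CPM. RRM2 was most like MYBL2 (mean r = 0.995), TK1 (0.992) and WDR76 (0.992), and TK1 most like RRM2, MYBL2 and GINS2 (0.990). RRM1 was most like PCNA (0.993), TYMS and BLM, and TYMS most like RRM1, PCNA and PBK. DUT was most like HMGB2 (0.986), UBE2C and CCNB2, and DTYMK most like H2AZ1 (0.982), RANBP1 and CDKN2C. DCTPP1 was most like POLR3K (0.957), LSM4 and CACYBP, and PAICS most like PA2G4 (0.979), PPAT (0.978) and STARD7 (0.977). IMPDH2 had no gene as close, its nearest being NAP1L1 (0.849), EXOSC7 (0.840) and APEX1 (0.826). Groups that differ in level in the same direction raise every such r.

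Beyond these 9, a list of 58 other genes of nucleotide metabolism was examined, of which 54, 54 and 55 were tested in the 3 lines. At 24 h 10, 15 and 15 were called lower and 2, 2 and 4 higher, with median log2 fold changes of -0.17, -0.17 and -0.13. At the longer time 30, 15 and 19 were lower and 4, 2 and 3 higher, with medians of -0.61, -0.38 and -0.30 beside 0.012, 0.0028 and 0.011 over all genes. The shares of all genes called are those given above, 10.6%, 10.5% and 11.0% lower at 24 h and 22.3%, 15.5% and 17.3% lower at the longer time, with 10.9%, 7.87% and 10.5% higher at 24 h and 24.5%, 16.6% and 18.6% higher at the longer time. From 24 h to the longer time 19, 4 and 7 fell (14.4%, 8.86% and 6.23% of all genes) and 5, 4 and 2 rose (17.5%, 10.8% and 10.5% of all genes).

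SHMT1, which charges folate with a one-carbon unit, was lower at 24 h (-0.96, -1.40 and -0.76), and later too (-1.67, -0.98 and -0.69). DCK, the salvage kinase of deoxycytidine, was lower at 24 h in all lines (-0.77, -1.13 and -0.93). RRM2B, the small-subunit relative of RRM2 that acts outside S phase, was called in no line at either time and lay between -0.34 and 0.23.

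Of the 11 purine synthesis genes 3, 4 and 5 were called lower at 24 h and 9, 5 and 6 with longer PB. The 5 pyrimidine synthesis genes held 0, 1 and 2 lower at 24 h and 3, 1 and 4 with longer PB. Both sets of counts stand beside the shares of all genes lower, which were 10.6%, 10.5% and 11.0% at 24 h and 22.3%, 15.5% and 17.3% with longer PB. PRPS2, which makes the ribose phosphate donor, was lower at both times in all lines (-1.10, -1.65 and -1.07 at 24 h, -1.55, -1.54 and -1.12 later), and so was GMPS, which follows IMPDH2 on the way to GMP (-0.92, -0.79 and -0.70 later). IMPDH1, the paralog of IMPDH2, was lower at 24 h in SH-SY5Y (-0.75 ± 0.064, adjusted p = 3.2e-08), and later in SH-SY5Y (-1.60) and SK-N-BE(2)C (-0.93), while in IMR-32 it gave 0.01 and -0.11. The purine phosphorylase PNP (-1.23, -0.68 and -1.88) and DHODH, the mitochondrial step of pyrimidine synthesis (-1.38, -0.83 and -0.79), were lower at the longer time in all lines. DHODH at 24 h gave 0.01, 0.11 and -0.16 and was not called. UCK1, a uridine and cytidine kinase, was lower at 24 h in the 3 lines (-1.04, -0.88 and -0.66). The 1 gene called higher at 24 h in all lines was SLC29A3, a nucleoside transporter of internal membranes (0.72, 0.70 and 0.96).

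**Figure D5:**
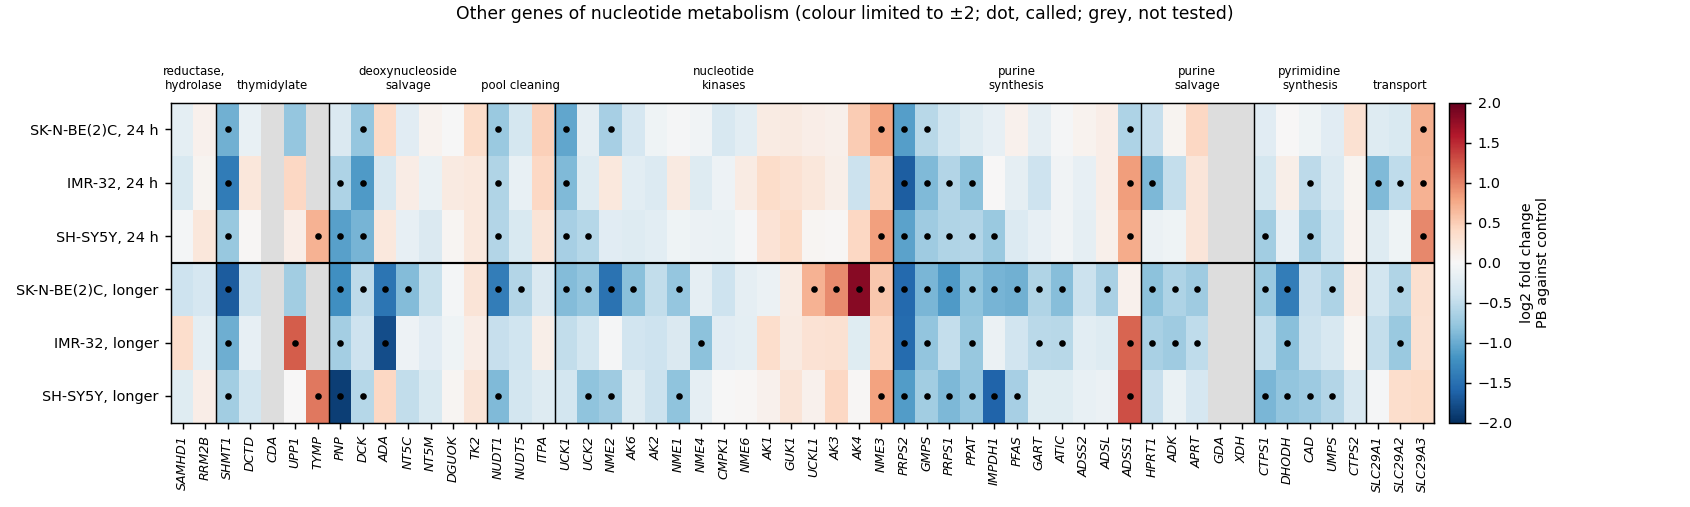
Log2 fold change against control of the other genes of nucleotide metabolism (columns, by role) in the 3 lines at 24 h (top) and longer PB (bottom), colour limited to ±2, dots for called genes and grey for genes not tested. Not every gene of the list is drawn, and purine synthesis has 9 of 11 genes called lower in SK-N-BE(2)C at the longer time against 3 at 24 h.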

How the data were processed

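RNA-seq counts of 3 lines, 45 libraries, were used. Per the study's methods, the authors trimmed reads with Trim Galore, aligned them to hg19 with STAR and deposited counts per gene. The submitters' processing notes give Trim Galore 0.6.4 and STAR 2.6.1d, and the methods give another last letter for STAR. The annotation and the strand counted are not given in the sources used here. Deposited CPM values, and tables of the authors' own comparisons (fold changes and p-values from DESeq2 1.32.0), were not used.

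Counts were analysed with edgeR 4.0.16 in R 4.3.3: TMM factors, genes kept by filterByExpr (minimum count 10, minimum total 15, share 0.7), 1 mean per group fitted by robust quasi-likelihood to each line's 15 libraries, F tests, and Benjamini-Hochberg adjustment over all genes tested. CPM printed here are counts scaled to each library's total alone, without the TMM factors of the fits (0.935 to 1.05). Standard errors were obtained from the log2 fold change and F. A fit of all 45 libraries tested differences between lines, and 0.1 CPM was added before logs in ratios. The script was tested on simulated data. The alternatives were RLE factors, library size alone, no filter, DESeq2 1.42.0, a replicate block, omitted libraries and adjusted p alone. Positions and exon lengths follow GENCODE on GRCh37. The 9 enzymes and all lists were chosen with earlier results of these data known. Of the other genes, up to 6 in each direction with the largest mean change among those called in all 3 lines were named, and RRM2B, TK2 and IMPDH1. Some genes that met this rule are not reported here. PRRX1, a listed marker, was not analysed here.

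The study describes replicates as passages plated in independent experiments, and the labels say only that they are replicates, so p-values measure the spread between these libraries, which may in part be technical. Intervals of 95% assume normal errors. Chi-square divided by its degrees of freedom ran from 1.69 to 86.9 over the 90 replicate pairs (genes of 20 or more counts), so no library was a copy. In SK-N-BE(2)C replicates 3 to 5 gave low values among themselves (1.69 to 3.18, other pairs 7.05 to 23.6) in control and at 24 h, so the 5 may be fewer independent ones. After removal of group means, libraries of the same number correlated above 0.1 for all comparisons within IMR-32 (lowest 0.114) and SH-SY5Y (0.109) and at 24 h in SK-N-BE(2)C (0.243), and not in its comparisons with 7 days (lowest 0.0482 and 0.0966).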

Additional observations from a re-analysis of the deposited data

Results flagged for a closer look

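In 9 of 81 sets of 5 libraries (9 enzymes, 9 groups), the highest or lowest library stood far from the other 4 by Dixon's criterion, which chance meets in about 1 set in 20. IMR-32 replicate 5 accounted for 5 of them: in control for RRM1 (347 CPM, others 219 to 253), RRM2 (199 CPM, others 114 to 136) and TYMS (376 CPM, others 291 to 305), and for PAICS at 24 h (368 CPM, others 205 to 251) and at 5 days (359 CPM, others 211 to 254). IMR-32 replicate 2 at 24 h was high for DUT (92.0 CPM, others 71.6 to 73.9) and DCTPP1 (70.0 CPM, others 49.7 to 54.8). Across all genes its pairs with replicates 1, 3 and 4 gave a chi-square per degree of freedom of 40.4, 44.2 and 44.7. Pairs among replicates 1, 3 and 4 gave 3.93 to 9.51. In SK-N-BE(2)C, PAICS was high in replicate 2 at 24 h (524 CPM, others 470 to 483), and DTYMK was low in control replicate 1 (144 CPM, others 155 to 158).

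Differences of response between lines passed the test in 21 of 81 comparisons of an enzyme, where 2.04% to 23.9% of all genes differed in the 9 contrasts. For longer PB against control, SK-N-BE(2)C minus IMR-32 differed by -0.58 (RRM1), -1.74 (RRM2), -1.31 (TYMS), -0.66 (DTYMK), -1.18 (TK1) and -0.61 (DCTPP1) log2 units. SK-N-BE(2)C minus SH-SY5Y differed by -0.54 (DCTPP1), and IMR-32 minus SH-SY5Y by 0.81 (RRM1), 1.73 (RRM2) and 1.13 (TYMS). For longer PB against 24 h, SK-N-BE(2)C minus IMR-32 differed by -0.98 (RRM1), -2.70 (RRM2), -2.10 (TK1), -0.84 (DCTPP1), -0.53 (PAICS) and 0.51 (IMPDH2). SK-N-BE(2)C minus SH-SY5Y differed by -0.62 (DCTPP1), and IMR-32 minus SH-SY5Y by 0.89 (RRM1), 1.27 (TYMS), 1.64 (TK1) and -0.87 (IMPDH2). Without IMR-32 replicate 5, the TYMS difference in the last pair no longer passed (1.19, adjusted p = 0.065), and IMPDH2 in the first pair was under the fold limit with the replicate block (0.50). The lines were treated for 7 or 5 days, which cannot be told apart from line for the pairs with SK-N-BE(2)C.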

How the results depend on the processing

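Every call of the 9 enzymes against control within a line, at both times, was the same under RLE factors, library size alone, no filter, DESeq2, the replicate block and each omitted library or replicate number. Omitting libraries left 7 (SK-N-BE(2)C), 8 (IMR-32) and 8 (SH-SY5Y) enzymes called at 24 h. With longer PB they left 8, 9 and 8, and the block changed no call within a line. The cause of the changes listed here was not tested.

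With adjusted p alone, the genes called against control rose to 6577, 4738 and 7154 (24 h) and to 9993, 7296 and 9516 (longer PB), those called for longer PB against 24 h to 8335, 4914 and 6331, and enzymes called in the last comparison in SK-N-BE(2)C went from 2 to 5. Omitting single libraries or replicate numbers gave 2 to 5 there, 5 in IMR-32 and 2 to 3 in SH-SY5Y. Differences between the treated times that changed sign with an omitted library were all uncalled: RRM1 in SK-N-BE(2)C (without replicate 4, range -0.0040 to 0.27), PAICS in IMR-32 (range -0.24 to 0.083), and in SH-SY5Y DCTPP1 (range -0.21 to 0.023), IMPDH2 (-0.13 to 0.022) and DTYMK (-0.018 to 0.14).

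Differences between lines depended more on the processing. At the longer time, SK-N-BE(2)C minus IMR-32 counted 2 enzymes with no filter instead of 6, and SK-N-BE(2)C minus SH-SY5Y 0 with RLE factors or no filter instead of 1. For the step between treated times, the latter pair counted 0 with no filter instead of 1. At 24 h that pair counted 1 (DUT) with the replicate block or without IMR-32 replicate 5 instead of 0. Uncalled differences that changed sign were, in SK-N-BE(2)C minus SH-SY5Y at the longer time, RRM2 (0.029 with RLE, 0.027 with no filter), TK1 (0.0043 and 0.0050) and IMPDH2 (0.0084 and 0.013), in IMR-32 minus SH-SY5Y PAICS (0.010 with no filter, 6.7e-04 with the block, 0.0079 without IMR-32 replicate 5), and in the step of SK-N-BE(2)C minus IMR-32 DUT (-0.016 with library size alone, -0.0074 with no filter). With the block, IMPDH2 in that step fell to 0.50, under the fold limit. No scaling moved the median of all genes by over 0.1 log2 units within a line.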

Other observations

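A few other genes of nucleotide metabolism were called higher under PB, and they are named here after their values were seen. AK4, a mitochondrial adenylate kinase, held 1.36, 0.395, 0.649, 0.594 and 0.378 CPM in SK-N-BE(2)C controls, 1.65, 1.34, 0.784, 0.502 and 0.631 CPM at 24 h and 2.72, 2.97, 2.48, 2.38 and 1.98 CPM at 7 days. Its log2 fold change at 7 days was 1.82 ± 0.36, adjusted p = 2.2e-04, while IMR-32 and SH-SY5Y gave -0.25 and 0.03 at 5 days and were not called. In the fit of all 45 libraries its change with longer PB in SK-N-BE(2)C was above that in IMR-32 by 2.09 ± 0.36 (adjusted p = 1.8e-05) and above that in SH-SY5Y by 1.76 ± 0.36 (adjusted p = 2.5e-04) log2 units, at 7 days against 5.

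ADSS1, an adenylosuccinate synthase, was called higher in IMR-32 at 24 h (0.84 ± 0.30, adjusted p = 0.04) and with longer PB (1.16 ± 0.30, adjusted p = 0.0042), and likewise in SH-SY5Y at 24 h (0.74 ± 0.14, adjusted p = 2.5e-04) and with longer PB (1.29 ± 0.14, adjusted p = 2.5e-07). In SK-N-BE(2)C it was called lower at 24 h (-0.61 ± 0.16, adjusted p = 0.0047) and gave 0.09 ± 0.16, adjusted p = 0.63 at 7 days. Its 24 h libraries there held 2.85, 3.46, 3.02, 2.79 and 2.09 CPM and its controls 3.61, 4.78, 4.44, 4.09 and 4.38 CPM. UPP1, a uridine phosphorylase, was called higher at 5 days in IMR-32 (1.21 ± 0.41, adjusted p = 0.023). It was not called higher at 24 h in that line, nor at either time in SK-N-BE(2)C.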
